A study of Caenorhabditis elegans with 9 samples.

Results

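The 5 flavin-containing monooxygenase genes of Caenorhabditis elegans, fmo-1 to fmo-5, were followed across whole worms fed 3 different RNA interference (RNAi) constructs. They were selected by gene name from a table of 46748 gene identifiers, and the family was picked because fmo-2 stood above the control in one RNAi group and below it in the other. The values of fmo-2 against the control are therefore given as a description with no test. The rule used no value of the other 4 genes, which entered by name, and their changes were tested. The family was still chosen with earlier results of these data known, which limits what the p-values of these tests can show. All 5 passed the filter on low counts, which left 14622 genes.

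Flavin-containing monooxygenases sit at the membrane of the endoplasmic reticulum and use a bound flavin, NADPH and molecular oxygen to add oxygen to nitrogen or sulfur atoms of small molecules. In mammals they are known for the metabolism of drugs and dietary amines. In C. elegans, fmo-2 is the best studied member: it is an intestinal gene that is switched on by fasting and by the hypoxia factor HIF-1, and its product lengthens life when made in excess. Its enzyme has been linked to tryptophan and one-carbon metabolism, while fmo-4 has been linked to calcium handling at the endoplasmic reticulum and to osmoregulation.

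The worms were N2, the wild-type laboratory strain, hermaphrodites of 5 days of age, and each library came from whole animals. The control group carried L4440, the empty vector used for RNAi by feeding. A second group carried RNAi against B0395.3, a gene related to carnitine O-acyltransferases, and the third group carried RNAi against H28O16.1, the sequence name of atp-1, which encodes the alpha subunit of mitochondrial ATP synthase. Each group had 3 libraries, and nothing in the labels ties them to separate cultures. P-values therefore rest on the spread of these libraries alone, which may be technical.

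Libraries held 31236614 to 40990685 counts. Levels are given as CPM, counts scaled by library size with TMM. The target B0395.3 stood at 33.6 ± 1.77 CPM (SD, n = 3) in L4440, 13.9 ± 2.23 in its own RNAi group and 25.6 ± 2.52 in the H28O16.1 group. atp-1 stood at 1945 ± 72.0 CPM in L4440, 1762 ± 50.2 in the B0395.3 group and 70.7 ± 4.35 in the H28O16.1 group. H28O16.1 replicate 3 lay apart from its group, with a chi-square per degree of freedom of 16.3 and 11.8 against the other libraries, which stood at 5.36 to each other. Markers of 9 tissues and cell types were detected, and no marker was at 0 in all 9 libraries. The sum of 10 early embryo markers was 94.99 to 99.13 CPM in L4440, 114.3 to 119.3 in the B0395.3 group and 4.415 to 5.02 in the H28O16.1 group. Of the 7 of these markers that were tested, 4 rose and 1 fell in the B0395.3 group, and 6 fell in the H28O16.1 group.

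The fmo genes lie on 3 chromosomes of the build WBcel235, with positions from the Ensembl 115 annotation. fmo-1 (WBGene00001476) lies at IV:10661857-10664404 and fmo-2 (WBGene00001477) at IV:10682524-10684367, both on the plus strand. They are 18119 bases apart, with 3 protein-coding genes between them (K08C7.7, epi-1 and K08C7.4). fmo-3 (WBGene00001478) lies at III:10694681-10698864 on the plus strand. fmo-4 (WBGene00001479) at V:13603276-13606701 and fmo-5 (WBGene00001480) at V:899304-903665 are on the minus strand. Their longest coding lengths run from 1536 bases in fmo-3 to 1704 in fmo-4. No exon base of any of the 5 overlaps an exon of another annotated gene. Strand was not marked, and reads from unannotated antisense or run-through RNA were not measured.

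The gene models share exon lengths to the base. An exon of 244 bases occurs in fmo-1, fmo-2, fmo-3 and fmo-5, although only 1.28% of all protein-coding genes have an exon of that length. An exon of 315 bases occurs in fmo-2, fmo-3 and fmo-5, against 0.826% of protein-coding genes. fmo-3 and fmo-5 also share lengths of 95, 126 and 382 bases, found in 3.03%, 3.87% and 0.45% of genes. fmo-4 shares no exon length with the others. fmo-2 is the most compact gene, with 5 exons in 1 annotated transcript.

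**Figure D1:**
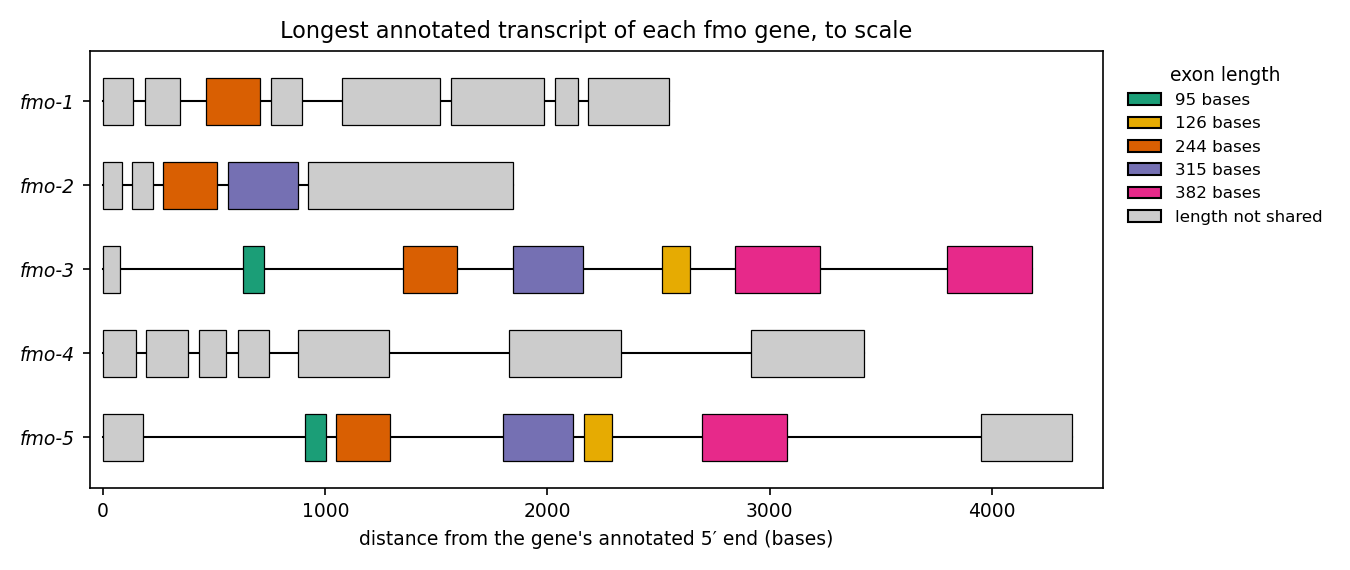
Exons of the longest annotated transcript of each fmo gene, drawn to scale from the gene's 5′ end in bases, with colours for exon lengths that occur in more than 1 fmo gene. The 244-base exon appears in every gene but fmo-4, and fmo-3 and fmo-5 have the most shared lengths.

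The level of fmo-2 differed from the control in both RNAi groups, which is how the family was picked. In the L4440 libraries fmo-2 stood at 4.38, 5.59 and 9.31 CPM, from 159, 209 and 368 counts. In the B0395.3 libraries it stood at 48.0, 49.5 and 54.1 CPM, from 2008, 1732 and 2231 counts. In the H28O16.1 libraries it stood at 1.88, 1.60 and 1.66 CPM, from 72, 51 and 68 counts. The 3 groups did not overlap: every B0395.3 library lay above every control library, and every H28O16.1 library lay below them. Separate groups were found for 47.1% of all genes in B0395.3 against L4440 and for 61.4% in H28O16.1 against L4440.

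The fitted level of fmo-2 in the B0395.3 group was 7.82-fold that in L4440, a log2 difference of 2.97, and only 2 of the 14622 genes had a larger fitted rise. In the H28O16.1 group the mean CPM was 26.7% of that in L4440. The fitted log2 difference was -1.91, at place 617 when genes are ordered from the largest fall. Between both RNAi groups fmo-2 stood 29.3-fold lower in H28O16.1 than in B0395.3. The size of both differences from the control depends on how fmo-2 varied there. Its highest control library was 2.13 times its lowest, with a coefficient of variation of 40.0%, against 6.28% in the B0395.3 and 8.59% in the H28O16.1 libraries. Without L4440 replicate 3, the highest of the controls, the log2 differences were 3.34 and -1.52. In RNA from whole worms, fewer cells of a type and less RNA per cell cannot be told apart, for fmo-2 as for the others.

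**Figure D2:**
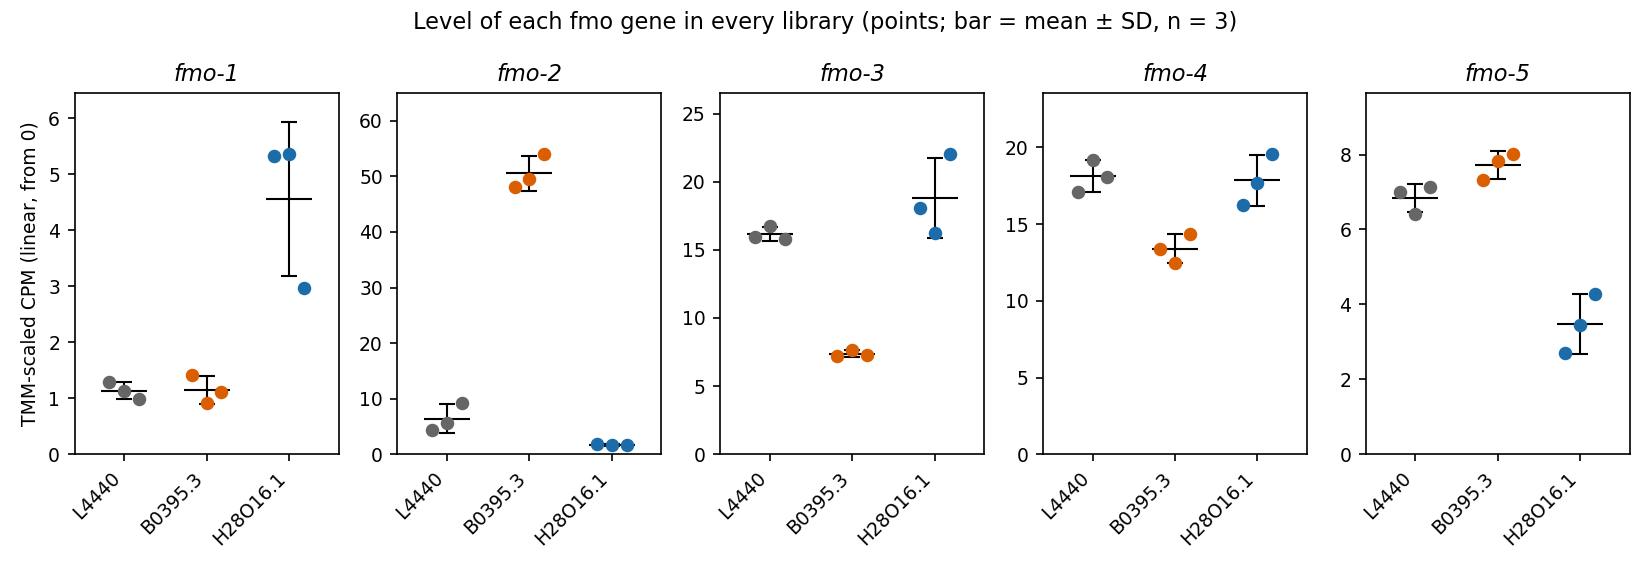
TMM-scaled CPM of each fmo gene on a linear axis from 0, with 1 point a library and the mean ± SD of 3 libraries per RNAi group. fmo-2 is high in all 3 B0395.3 libraries and lowest in all 3 H28O16.1 libraries, fmo-3 and fmo-4 are low in the B0395.3 group, and fmo-1 is high and fmo-5 low in the H28O16.1 group.

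Among the other 4 fmo genes the directions differed. In the B0395.3 group, fmo-3 and fmo-4 fell, and fmo-1 and fmo-5 did not pass the test. This makes 2 of 4 genes called, against 27.2% of all 14622 genes in the same comparison, of which 12.6% were called higher and 14.6% lower. With 4 genes, no departure from that share can be read.

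In the L4440 libraries fmo-3 stood at 15.96, 16.7 and 15.8 CPM, and in the B0395.3 libraries at 7.199, 7.68 and 7.25 CPM. The coefficient of variation was 3.03% and 3.59% in these groups, and they did not overlap. fmo-3 fell to 45.6% of the control, a log2 fold change of -1.13 ± 0.10 (SE), with an adjusted p of 2.54e-06 in edgeR's quasi-likelihood test with Benjamini-Hochberg adjustment. fmo-4, the member tied to calcium and osmoregulation, stood at 17.1, 19.2 and 18.1 CPM in L4440 and at 13.4, 12.5 and 14.4 in the B0395.3 libraries. These groups did not overlap either. The mean CPM of fmo-4 was 73.9% of the control. Its log2 fold change was -0.43 ± 0.08 (SE), with an adjusted p of 0.00126 in the same edgeR test. For non-overlap alone, 47.1% of all genes had separate groups in this comparison.

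fmo-5 stood at 6.99, 6.42 and 7.13 CPM in L4440 and at 7.32, 7.82 and 8.03 CPM in the B0395.3 libraries. The groups did not overlap, but the log2 fold change of 0.17 (95% interval -0.09 to 0.44) did not pass the edgeR test, with an adjusted p of 0.330. fmo-1 was the scarcest member, at 1.29, 1.12 and 0.986 CPM in L4440 and 1.41, 0.914 and 1.11 CPM in the B0395.3 libraries. Its groups overlapped, and the log2 fold change of 0.03 had a 95% interval of -0.59 to 0.66, with an adjusted p of 0.951 in the edgeR test. Between 32 and 59 counts lay behind each of these fmo-1 values. A change within that interval was not excluded, and the parts of depth and of library spread in its width were not tested.

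In the H28O16.1 group the pattern was a different one: fmo-1 rose and fmo-5 fell, while fmo-3 and fmo-4 did not pass the test. Again 2 of 4 genes were called, against 57.6% of all genes in that comparison, with 26.3% called higher and 31.2% lower. The share of the fmo genes is near that background, so the count is no result about the family.

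In the H28O16.1 libraries fmo-1 stood at 5.33, 5.37 and 2.96 CPM, all above the control libraries and above the B0395.3 libraries. The lowest of these was replicate 3, the library that lay apart. fmo-1 rose 3.98-fold, a log2 fold change of 1.99 ± 0.24 (SE), with an adjusted p of 9.87e-06 in edgeR's quasi-likelihood test, and took place 94 among rises. Without H28O16.1 replicate 3 the log2 fold change was 2.24. fmo-5 stood at 2.69, 3.45 and 4.28 CPM in the H28O16.1 libraries, all below the control, with replicate 3 the nearest to it. Its mean CPM fell to 50.8% of that in L4440, with a log2 fold change of -0.97 ± 0.13 (SE) and an adjusted p of 3.55e-05 in the edgeR test. Without H28O16.1 replicate 3 the log2 fold change was -1.17. Non-overlapping groups were found for 61.4% of all genes in this comparison.

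fmo-3 stood at 18.1, 16.3 and 22.1 CPM in the H28O16.1 libraries, a range that overlaps the control. Its log2 fold change of 0.22 (95% interval 0.02 to 0.42) missed the threshold with an adjusted p of 0.0571 in the edgeR test. Its call turned with the setting: the adjusted p was 0.0421 in DESeq2, 0.00881 with no filter on low counts and 0.00865 without H28O16.1 replicate 2, and over all 14 alternatives it reached up to 0.262. fmo-4 stood at 16.3, 17.7 and 19.6 CPM in the H28O16.1 libraries, inside and around the control range. Its log2 fold change was -0.02 with a 95% interval of -0.19 to 0.15 and an adjusted p of 0.830 in the edgeR test.

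The direct comparison of both RNAi groups tests whether the response of a gene differed between them. fmo-1, fmo-3 and fmo-4 were higher in H28O16.1 than in B0395.3, and fmo-5 was lower, so 4 of 4 tested members were called, against 62.6% of all genes (30.5% higher and 32.1% lower). The log2 differences were 1.96 ± 0.24 (SE) for fmo-1, 1.36 ± 0.10 for fmo-3, 0.41 ± 0.08 for fmo-4 and -1.15 ± 0.13 for fmo-5. Their adjusted p-values in the edgeR test were 8.50e-06, 7.97e-08, 0.000575 and 5.78e-06 in that order. The groups of each of these 4 genes were separate, which held for 66.8% of all genes. The comparisons with L4440 share their control libraries, and their values are given side by side only.

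**Figure D3:**
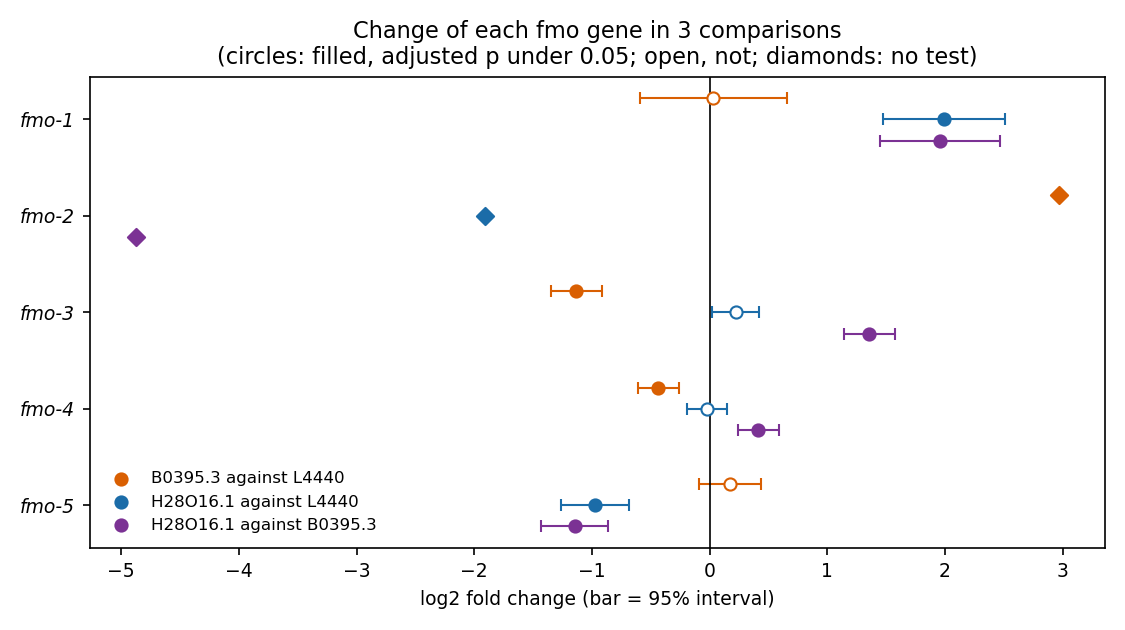
Log2 fold change of each fmo gene in the 3 comparisons, with 95% intervals for the genes that were tested. Filled circles have an adjusted p under 0.05 in edgeR, open circles do not, and the diamonds of fmo-2 are a description with no test: fmo-2 lies far to the right in B0395.3 against L4440 and to the left in the other comparisons.

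Per kilobase of exon the family changed its order. This scale divides CPM by the merged exon length, so levels of different genes can be compared. In L4440, fmo-3 led at 9.94 ± 0.301 CPM per kilobase (SD, n = 3), ahead of fmo-4 at 8.97 ± 0.515, fmo-5 at 3.91 ± 0.216, fmo-2 at 3.87 ± 1.55 and fmo-1 at 0.567 ± 0.0769. The libraries of fmo-5 and fmo-2 overlapped, so these neighbours were not separated, while the other neighbours were. In the B0395.3 group fmo-2 led at 30.5 ± 1.91 CPM per kilobase, followed by fmo-4 at 6.63 ± 0.464, fmo-3 at 4.53 ± 0.163, fmo-5 at 4.41 ± 0.208 and fmo-1 at 0.573 ± 0.125. Here fmo-3 and fmo-5 overlapped. In the H28O16.1 group fmo-3 led at 11.6 ± 1.82 CPM per kilobase, followed by fmo-4 at 8.83 ± 0.830, fmo-1 at 2.28 ± 0.689, fmo-5 at 1.98 ± 0.454 and fmo-2 at 1.03 ± 0.0887. Here fmo-1 and fmo-5 overlapped. fmo-2 thus took the fourth place in the control, the first in one RNAi group and the last in the other.

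Among all tested genes ordered by CPM per kilobase, fmo-2 stood at percentile 41.8 in L4440, 68.3 in the B0395.3 group and 25.7 in the H28O16.1 group. fmo-1 moved from percentile 16.2 in L4440 to 36.0 in the H28O16.1 group. The summed level of the 5 genes was 27.3 ± 1.65 CPM per kilobase in L4440, 46.6 ± 2.37 in the B0395.3 group and 25.7 ± 2.17 in the H28O16.1 group. fmo-2 made up 14.0% ± 4.80 of that sum in L4440, 65.3% ± 0.810 in the B0395.3 group and 4.05% ± 0.541 in the H28O16.1 group. Without fmo-2 the sum ran the other way in the B0395.3 group, at 16.14 ± 0.479 CPM per kilobase against 23.4 ± 0.563 in L4440, and stood at 24.6 ± 2.19 in the H28O16.1 group.

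**Figure D4:**
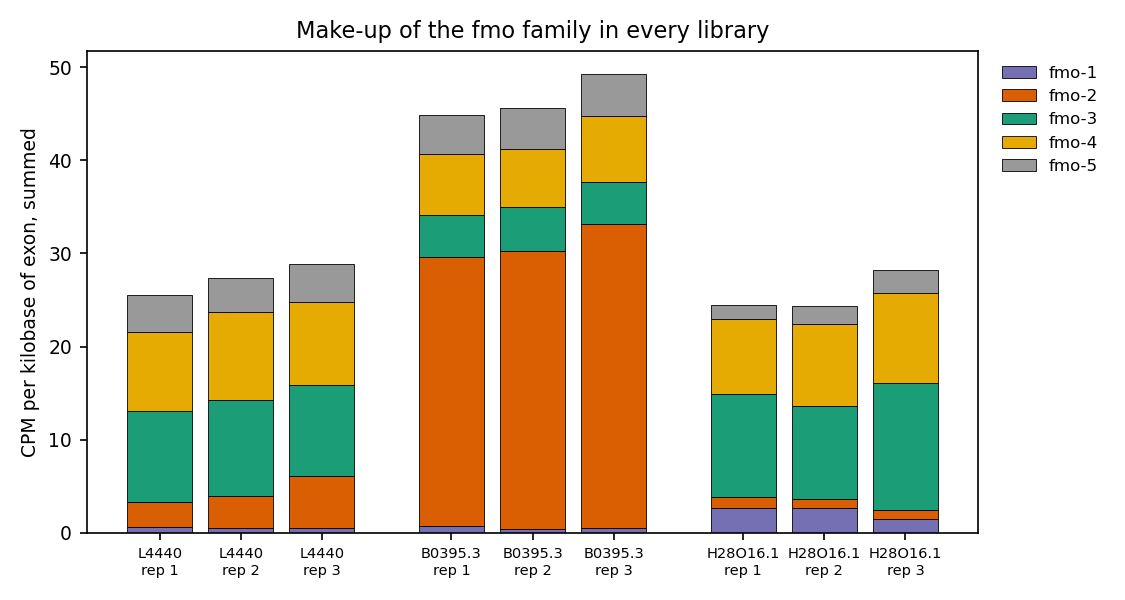
Stacked bars of CPM per kilobase of exon for the 5 fmo genes in each of the 9 libraries, on a linear axis from 0. fmo-2 fills most of each B0395.3 bar (65.3% on average) and little of each H28O16.1 bar (4.05%).

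Tissue markers moved with the groups, and their part in the fmo values was not tested. All 10 intestine markers had counts in every library. Their sum was 1703 to 1813 CPM in L4440, 1547 to 1585 in the B0395.3 group, where fmo-2 was high, and 1487 to 1612 in the H28O16.1 group, where it was low. Single members went both ways: 2 rose and 5 fell in the B0395.3 group, and 4 rose and 4 fell in the H28O16.1 group. The protease gene cpr-1 stood at 492 CPM in L4440, 647 in the B0395.3 group and 218 in the H28O16.1 group, while asp-1 stood at 545, 325 and 635 CPM. The sum of 9 hypodermis markers was 155 to 188 CPM in L4440 and 130 to 138 in the B0395.3 group. It was 149 to 160 CPM in the H28O16.1 group. Of these 9 markers, 1 rose and 2 fell in the B0395.3 group, and 1 rose and 5 fell in the H28O16.1 group. The sum of 8 excretory cell markers was 377 to 387 CPM in L4440 and 351 to 359 in the B0395.3 group. It was 331 to 348 CPM in the H28O16.1 group. Most of this sum was vha-8, which fell from 282 CPM in L4440 to 243 in the B0395.3 group. Of these 8 markers, 2 rose and 1 fell in the B0395.3 group, and 1 rose and 5 fell in the H28O16.1 group. The sum of 8 body wall muscle markers was 907 to 1092 CPM in L4440, 613 to 689 in the B0395.3 group, where fmo-3 and fmo-4 fell, and 958 to 1416 in the H28O16.1 group. The sum of 10 oocyte markers was 14900 to 15660 CPM in L4440, 13680 to 14300 in the B0395.3 group and 12620 to 13160 in the H28O16.1 group. The pharynx and neuron sums were higher in the B0395.3 group than in L4440. The sum of 8 pharynx markers was 57.78 to 62.21 CPM in L4440, 73.92 to 81.29 in the B0395.3 group and 46.86 to 63.01 in the H28O16.1 group. Of 7 tested, 3 rose and none fell in the B0395.3 group, and none rose and 4 fell in the H28O16.1 group. The sum of 9 neuron markers was 291 to 298 CPM in L4440, 304 to 321 in the B0395.3 group and 279 to 306 in the H28O16.1 group. Most of the neuron sum was snb-1, which stood at 185 CPM in L4440 and 189 in the B0395.3 group without passing the test. Of these 9 markers, 2 rose and none fell in the B0395.3 group, and 1 rose and 2 fell in the H28O16.1 group. The sum of 10 sperm markers was 6.88 to 7.43 CPM in L4440 and lower in the B0395.3 group, at 6.23 to 6.51. It was 9.95 to 10.95 CPM in the H28O16.1 group. Single members mostly went the other way there: of 6 tested, 1 rose and 3 fell. The riser was spe-41, at 2.00 CPM in L4440 and 7.79 in the H28O16.1 group.

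All pathway lists were chosen with earlier results of these data known, so their shares beside all genes are given as a description. Genes reported to control fmo-2 changed by small amounts in mRNA. Of 15 such regulators, 2 rose and 2 fell in the B0395.3 group, which is 26.7% beside 27.2% of all genes, with a median log2 fold change of 0.02 beside 0.00788 over all genes tested. hlh-30, which encodes the TFEB-like transcription factor of the fasting response, rose from 37.9 to 45.8 CPM, a log2 fold change of 0.28, with an adjusted p of 0.000626 in the edgeR test. daf-16, the FOXO factor of insulin signalling, rose by 0.11, and skn-1, the Nrf factor, fell by 0.10, as nhr-66, a nuclear receptor gene, fell by 0.13. The call of daf-16 was lost in 5 of the 14 alternatives, that of skn-1 in 4 and that of nhr-66 in 2, and without L4440 replicate 2 no regulator was called lower. hif-1 stood at 103 CPM in the B0395.3 group and 108 in L4440 and did not pass the test. nhr-49, a nuclear receptor of fat metabolism, stood at 148 and 147 CPM and did not pass it either.

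Among the same 15 regulators, 1 rose and 3 fell in the H28O16.1 group, which is 26.7% beside 57.6% of all genes, with a median of -0.06 beside -0.0042 over all genes tested. nhr-49 rose from 147 to 171 CPM, a log2 fold change of 0.22. hpk-1, a homeodomain-interacting kinase, fell by 0.51, pmk-1, the p38 kinase of innate immunity, fell by 0.26, and egl-9, the oxygen sensor that marks HIF-1 for destruction, fell by 0.18. Without H28O16.1 replicate 3, 6 regulators were called lower, and without L4440 replicate 3 or H28O16.1 replicate 2, 2 were called higher. mdt-15, nhr-80, tph-1, ser-7, mod-1 and vhl-1 passed the test in neither comparison with L4440.

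Of 17 tested genes of the HIF-1 pathway, 1 rose and 6 fell in the B0395.3 group, where fmo-2 was high, which is 41.2% beside 27.2% of all genes, with a median of -0.03. cysl-2, a cyanide-detoxifying synthase, fell by 1.23 from 39.7 to 16.9 CPM, rhy-1, an upstream inhibitor of HIF-1, fell by 0.77, and sqrd-1, the sulfide quinone oxidoreductase, fell by 0.71. Their adjusted p-values were 8.67e-07, 6.49e-05 and 2.17e-05 in the edgeR test. The riser was swan-1, by 0.13, a call lost without L4440 replicate 2 and without B0395.3 replicate 1 or 3. For the H28O16.1 group 2 of 17 rose and 8 fell, which is 58.8% and near the 57.6% of all genes, with a median of -0.16. Of those that fell, cysl-3 was called in 3 of the 14 alternatives and sqrd-1 in 8. Without 1 library, 6 to 10 of the list fell. nhr-57, a HIF-1 reporter gene, rose by 0.63 from 4.91 to 7.62 CPM there, and cysl-2 fell by 0.49. A further listed gene, cysl-4, did not pass the filter on low counts.

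Genes of fat metabolism tied to NHR-49, the receptor through which fasting acts on fmo-2, fell in the group where fmo-2 was high. Of 11 listed genes, sodh-1 was not matched by name, and the 10 others were tested. All 10 fell in the B0395.3 group, where 14.6% of all genes were called lower, with a median log2 fold change of -0.76. The list was chosen with earlier results of these data known, so these shares are no independent test of it. lbp-8, a lysosomal lipid chaperone, fell by 3.00 from 10.7 to 1.35 CPM. fat-5 and fat-7, which encode fatty acid desaturases, fell by 1.26 and 1.04, and the glyoxylate enzyme gene icl-1 fell by 1.03. Their adjusted p-values in the edgeR test lay between 6.63e-09 for fat-5 and 4.51e-06 for icl-1. The count was 5 without L4440 replicate 2 and 6 without B0395.3 replicate 2 or 3. fat-5, fat-7, icl-1, hacd-1 and lbp-8 were called in all 14 alternatives. For the H28O16.1 group 4 of 10 fell, which is 40.0% beside 57.6% of all genes, with a median of -0.29, led by hacd-1, a hydroxyacyl-CoA dehydrogenase gene, at -1.51.

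Among 22 genes of one-carbon metabolism, the pathway linked to the fmo-2 enzyme, none rose and 11 fell in the B0395.3 group, which is 50.0% beside 27.2% of all genes, with a median of -0.14. For the H28O16.1 group 7 rose and 11 fell, which is 81.8% beside 57.6%, with a median of -0.24. Of those that fell, folt-1 in the B0395.3 group and sams-5 in the H28O16.1 group were each called in 8 of the 14 alternatives. folt-2, a folate transporter gene, fell by 2.67 in the B0395.3 group and by 1.47 in the H28O16.1 group on the log2 scale. sams-1, an S-adenosylmethionine synthetase gene, fell by 1.25 and by 0.98. cbs-1, the cystathionine beta-synthase gene, stood at 25.3 CPM in the B0395.3 group and 24.97 in L4440 without passing the test, and fell by 1.72 to 7.56 CPM in the H28O16.1 group.

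Of 9 tested genes in a list around tryptophan and kynurenine, 1 rose and 5 fell in the B0395.3 group. This is 66.7% beside 27.2% of all genes, with a median of -0.28. For the H28O16.1 group 5 rose and 3 fell, which is 88.9% beside 57.6%, with a median of 0.14. kynu-1, which encodes kynureninase, fell from 76.5 to 34.9 CPM in the B0395.3 group, a log2 fold change of -1.13, and tdo-2, the tryptophan dioxygenase gene, fell by 0.66. tdo-2 rose by 0.27 in the H28O16.1 group, haao-1, the hydroxyanthranilate dioxygenase gene, by 0.46 and afmd-1, the arylformamidase gene, by 0.40. kynu-1 rose by 0.14 there with an adjusted p of 0.0484 in the edgeR test, a call lost in 8 of the 14 alternatives, with an adjusted p of up to 0.178. Without L4440 replicate 1 the number of risers in the H28O16.1 group was 3, and without L4440 replicate 2 the number that fell was 1. The riser of the B0395.3 group, umps-1, a pyrimidine synthesis gene, rose by 0.11 and was not called without L4440 replicate 2 or 3 or B0395.3 replicate 1 or 2. kmo-1, among those that fell in both groups, was called in 5 of the 14 alternatives in the B0395.3 group and in 7 in the H28O16.1 group. nkat-1, a kynurenine aminotransferase gene, did not pass the filter on low counts.

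A list of genes around flavin and NADPH, the cofactors of the fmo enzymes, was not limited to genes that supply them. It lay between -0.76 and 0.12 on the log2 scale in the B0395.3 group and between -0.57 and 0.27 in the H28O16.1 group. Of 12 genes, none rose and 9 fell in the B0395.3 group, which is 75.0% beside 27.2% of all genes, with a median of -0.13. 3 rose and 5 fell in the H28O16.1 group, which is 66.7% and near the 57.6% of all genes, with a median of -0.04. Without 1 library, 6 to 9 of the list fell and 0 to 1 rose in the B0395.3 group. gspd-1 was called lower there in 5 of the 14 alternatives, tald-1 in 8 and idh-1 in 9. T25B9.9, the phosphogluconate dehydrogenase gene, fell by 0.36 in the B0395.3 group and by 0.57 in the H28O16.1 group. nnt-1, the nicotinamide nucleotide transhydrogenase gene, fell by 0.76 in the B0395.3 group. flad-1, the FAD synthase gene, rose by 0.24 and emb-8, the cytochrome P450 reductase gene, by 0.27 in the H28O16.1 group.

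Partners of fmo-4 were read beside it. Of 6 calcium and endoplasmic reticulum genes, 1 rose in the B0395.3 group, where fmo-4 fell, which is 16.7% beside 27.2% of all genes. That gene was crt-1, which encodes calreticulin and rose by 0.21, and the list had a median of 0.01. Without L4440 replicate 3, 2 of them were called higher, and without H28O16.1 replicate 3, which shares in the estimate of spread, 3 were. For the H28O16.1 group 1 rose and 3 fell, which is 66.7% beside 57.6%, with a median of -0.17, and crt-1 fell by 0.29. Of 12 osmoregulation genes, 4 fell and none rose in the B0395.3 group, which is 33.3% and near the 27.2% of all genes, with a median of -0.11. 2 rose and 6 fell in the H28O16.1 group, which is 66.7% and near the 57.6% of all genes, with a median of -0.23. Both counts are no result about this list. gpdh-1, a glycerol phosphate dehydrogenase gene induced by salt, stood at 5.77 CPM in L4440, fell by 1.51 in the B0395.3 group and rose by 1.59 in the H28O16.1 group. hmit-1.1, a myo-inositol transporter gene, fell by 0.94 and rose by 1.75 in the same groups.

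**Figure D5:**
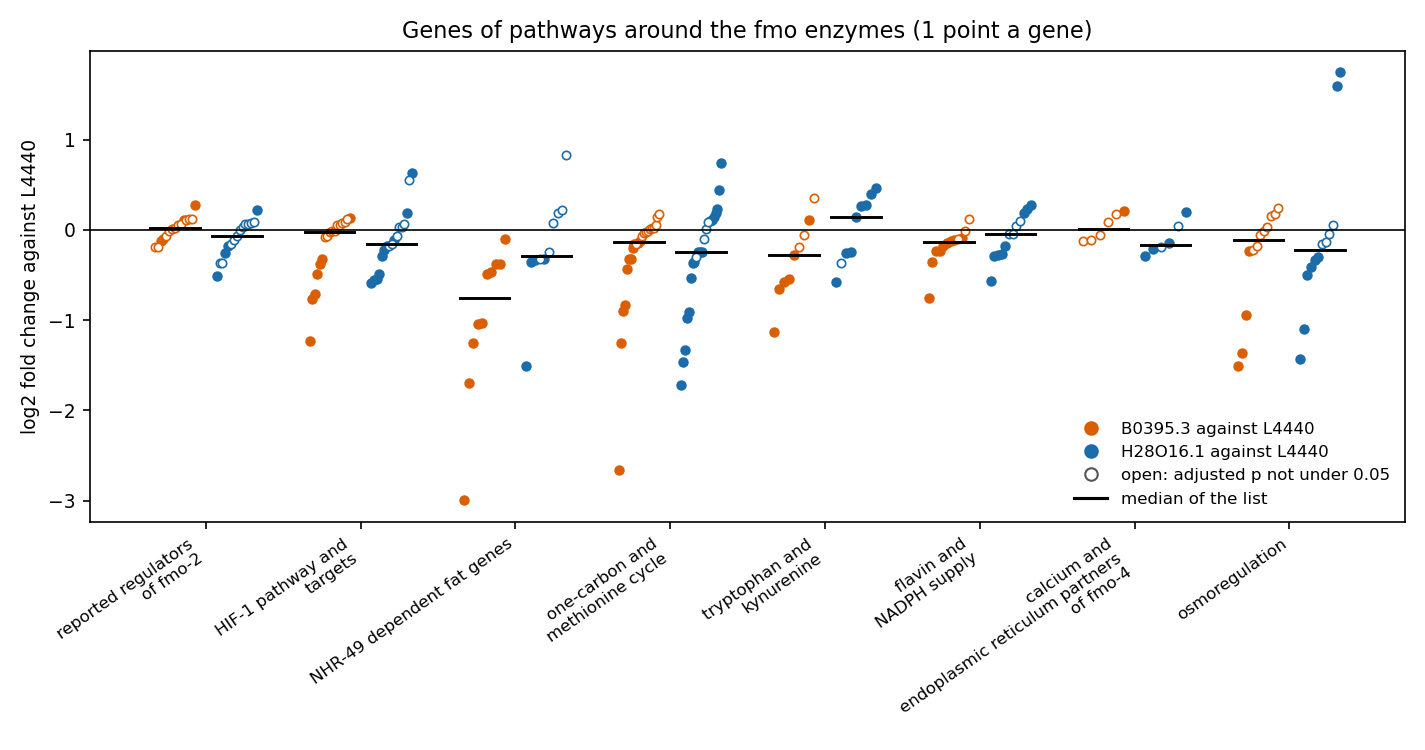
Log2 fold changes against L4440 of the genes in 8 pathway lists around the fmo enzymes, with 1 point a gene, open where the adjusted p was not under 0.05, and a bar at the median of each list. The fat genes tied to NHR-49 all lie below 0 in the B0395.3 group, and the regulators of fmo-2 lie close to 0 in both groups.

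For each fmo gene, the genes with the most similar pattern were found by Pearson's r of log2 CPM over the 9 libraries, among the 8513 genes that averaged 5 CPM or more. The libraries fall into 3 groups and share their scaling, and r is given as a description. It takes no account of the size of a change. For fmo-2 they were scl-2 at 0.997, F38E9.1 at 0.994, rbr-2 at 0.992, T23G7.3 at 0.991 and skr-19 at 0.990. By Spearman's rho 15 other genes came first, all at 0.983 or above, and 0 of these 5 were among them, so the names depend on the measure. scl-2 stood at 21.8 ± 1.84 CPM in L4440, 44.8 ± 1.21 in the B0395.3 group and 14.0 ± 0.143 in the H28O16.1 group, a narrower fold range than that of fmo-2. The rest moved less still. Their log2 differences from L4440 in the B0395.3 group ran from 0.19 for rbr-2 to 0.45 for skr-19, beside 2.97 for fmo-2. In the H28O16.1 group the differences ran from -0.12 for rbr-2 to -0.28 for skr-19, beside -1.91 for fmo-2. For fmo-3 the most similar genes were gst-36 at 0.998, T04F8.8 at 0.996 and the yolk protein gene vit-6 at 0.995. vit-6 stood at 20440 CPM in L4440, 14230 in the B0395.3 group and 22280 in the H28O16.1 group.

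For fmo-1 the most similar genes were smut-1 at 0.995, WBGene00014472, which is annotated as ribosomal RNA, at 0.993 and gen-1 at 0.991. WBGene00014472 stood at 23.1 ± 0.326 CPM in L4440, 22.99 ± 1.59 in the B0395.3 group and 57.6 ± 12.9 in the H28O16.1 group. The log2 differences from L4440 in the H28O16.1 group were 0.17 for smut-1 and 0.16 for gen-1, beside 1.99 for fmo-1. For fmo-4 the most similar genes were C53D6.7 at 0.985, del-6 at 0.981 and C08H9.15 at 0.980, and for fmo-5 lin-36 at 0.994, F33G12.6 at 0.993 and abl-1 at 0.993. In the H28O16.1 group lin-36 differed from L4440 by -0.24, F33G12.6 by -0.81 and abl-1 by -0.64 on the log2 scale, beside -0.97 for fmo-5. By Spearman's rho, 0 of the 3 genes of fmo-5 stayed among the most similar, against 2 of 3 for fmo-1, 2 of 3 for fmo-3 and 3 of 3 for fmo-4. Within the family, r was lowest between fmo-1 and fmo-5 at -0.967 and between fmo-2 and fmo-3 at -0.949, and highest between fmo-3 and fmo-4 at 0.914 and between fmo-2 and fmo-5 at 0.813.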

How the data were processed

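The deposited table holds the authors' raw, whole-number counts of reads per gene. Tools in the submitters' processing notes are featureCounts 1.4.6-p4, STAR 2.4.1d and bcl2fastq 1.8.4, with the build WBcel235. Their settings are not given in the sources. The TruSeq RNA kit v2, per the labels' protocols, was used for library preparation. It enriches polyadenylated RNA and leaves strand unmarked. Another table, of RPKM values, was not used.

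Counts were analysed with edgeR 4.0.16 and limma 3.58.1 in R 4.3.3: filterByExpr with a minimum count of 10, TMM scaling, 1 quasi-likelihood fit over 9 libraries and two-sided F-tests between groups, with Benjamini-Hochberg adjustment over 14622 genes and a threshold of 0.05. An exact permutation of 3 libraries against 3 cannot go below 0.1. Replicate numbers follow the order of the records and pair nothing. Alternatives were DESeq2 1.42.0, RLE and upper-quartile scaling, no filter, fits of 2 groups and leaving out each library. Named genes are the fmo genes, both targets, the 5 (fmo-2) or 3 (others) most similar genes, all listed regulators and, from each other list, up to 6 genes with the smallest p and 2 with the highest CPM. Some markers, neighbours and list genes with unstable calls are named as well. The fmo genes and all gene lists were chosen with earlier results of these data known.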

Additional observations from a re-analysis of the deposited data

How the results depend on the processing

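The calls of fmo-1, fmo-4 and fmo-5 in all 3 comparisons, and those of fmo-3 against L4440 in the B0395.3 group and between both RNAi groups, were the same under all 14 alternatives. The exception was fmo-3 in H28O16.1 against L4440, which passed the threshold at a log2 fold change of 0.24 in DESeq2 (adjusted p 0.0421), 0.24 with RLE scaling (0.0408) and 0.24 with no filter on low counts (0.00881), and ranged from 0.091 to 0.31 without 1 library. The cause was not tested. Uncalled values changed sign without 1 library: fmo-4 in H28O16.1 against L4440 ranged from -0.097 to 0.044, with 0.024 without L4440 replicate 2 and 0.044 without H28O16.1 replicate 1. fmo-1 in B0395.3 against L4440 ranged from -0.15 to 0.16, with -0.058 without L4440 replicate 3 and -0.15 without B0395.3 replicate 1. Without 1 library, 2943 to 5065 genes were called in B0395.3 against L4440, 7740 to 8644 in H28O16.1 against L4440 and 8398 to 9341 between both RNAi groups. No paired analysis was possible because the labels give no replicate numbers that link libraries across groups. In L4440 and B0395.3, fmo-1 had the fewest counts of the fmo genes, at 32 to 59 a library.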

Other observations

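The genes next to the fmo genes were read in the same fit, taking up to 2 protein-coding genes on each side, 19 in all, of which 15 were tested. In B0395.3 against L4440, 1 neighbour rose and 1 fell, which is 13.3% beside 27.2% of all genes, and in H28O16.1 against L4440, 6 rose and 4 fell, which is 66.7% beside 57.6%. The riser of the B0395.3 group was Y39A1A.17, at 0.963 CPM against 0.546 in L4440, and its call was lost in 5 of 14 alternatives: DESeq2, without L4440 replicate 1 or 3 and without B0395.3 replicate 1 or 3. Without L4440 replicate 3, K08C7.7 and epi-1 were also called lower there. In the H28O16.1 group Y39A1A.17, a neighbour of fmo-3, fell by 4.18 on the log2 scale, to 0.0296 CPM. This fall was called in all 14 alternatives. Y39A1A.20 and Y39A1A.21, on the other side of fmo-3, fell by 0.65 and 0.40 in the H28O16.1 group. K08C7.1, which lies 1071 bases before fmo-1 on the same strand, fell by 0.80 on the log2 scale in the B0395.3 group and rose by 0.64 in the H28O16.1 group, with adjusted p-values of 0.00122 and 0.00101 in edgeR. K08C7.7 begins 29 bases after fmo-1 on the same strand and stood at 1.117 CPM in L4440, 0.763 in the B0395.3 group and 1.68 in the H28O16.1 group. Its rise of 0.59 in the H28O16.1 group lost its call without L4440 replicate 3, at an adjusted p of 0.0519. K08C7.6, on the opposite strand 64 bases from fmo-2, stood at 11.9 CPM in L4440 and 10.7 in the B0395.3 group, where fmo-2 was high, and did not pass the test there. It rose by 0.36 in the H28O16.1 group, where fmo-2 was low.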
